A study of Homo sapiens with 60 samples.

Results

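The 10 genes described here, CDKN1A, MDM2, BAX, ZMAT3, EDA2R, AEN, FAS, SESN1, BBC3 and RPS27L, are transcribed by p53 in many human cell types, and were taken by symbol from a table of 37334 genes in which all 10 were found. p53 is a transcription factor that is kept low by the ubiquitin ligase MDM2 and is stabilised after DNA damage, oxidative or ribosomal stress. It then binds response elements made of a pair of 10-base half-sites and switches on genes that stop the cell cycle, repair damage or start apoptosis, and also MDM2, which closes a feedback loop. The main means of its control is the stability of the protein, which RNA levels do not show. In neuroblastoma cells the pathway is known to act during both drug responses and neuronal differentiation.

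RNA was sequenced from SH-SY5Y, a human neuroblastoma line of noradrenergic character that can be driven towards a neuron-like state. All cells were labelled wild type and came from passage 39. They were kept under a differentiation protocol of 18 days, and lead (Pb) at 0, 0.16, 1.26 or 10 µM was present from day 5 and renewed at every change of medium. Each combination of dose and day of collection (6, 9, 12, 15 or 18) was represented by 3 dishes, or 20 groups and 60 libraries in all. The controls were the 0 µM dishes of the same day. The 3 doses of a day were therefore compared with the same 3 control libraries. The model is a single tumour line at 1 passage, and p-values measure only the spread between its dishes.

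Each library had between 16.6 and 50.5 M reads assigned to genes (M, 1000000 reads). Levels are given as CPM, reads per 1000000 assigned reads, and 3 reads corresponded to 0.0594 to 0.1808 CPM, for counting error only. Tests used log2(CPM + 1) in limma on the 15263 genes that reached 1 CPM in 3 or more libraries, with p-values adjusted over all of them by the Benjamini-Hochberg method and a threshold of 0.05. All 10 genes passed this filter. A log2 change on this scale understates the change of a gene near 1 CPM. That concerns FAS, which had between 10 and 183 reads per library with a median of 59, whereas each of the other 9 genes had at least 229 reads in every library. The library names of day 18 carry another prefix in the labels than those of days 6 to 15. The labels do not say what the prefix stands for, and the step from day 15 to day 18 cannot be told apart from it. A pair of libraries stood apart by being low in long transcripts. The slope of their log2 deviation from the day's mean on log10 exon length was -0.432 for replicate 1 of day 18 at 0 µM and -0.409 for replicate 3 of day 6 at 10 µM, against -0.174 for the next lowest library. For the 10 genes, some results that rest on these libraries are given with and without them, and others only with them. The shares of all genes are given with them, and those of day 18 depend on them. Without the pair, the genes called higher at day 18 with 10 µM went from 1840 to 1173. They also depend on the spread shared by all groups, and were 554 when only the groups compared were fitted. The 15 noradrenergic markers all passed the filter and summed to 6330.6 to 18621.2 CPM per library, while 10 blood cell markers summed to at most 1.6 CPM, with HBB at 0 in every library.

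For 3 of the 10 genes the sequence near a start site held a match to the p53 consensus, and these are shown because p53 is known to act through such elements. RefSeq windows of GRCh38.p14, from 250 bases before to 50 bases after each annotated start, were available for all 10 genes (19 windows). They were searched for 20-base sites made of a pair of p53 half-sites with no spacer. The C at the fourth and the G at the seventh base of each half-site were required, and up to 2 other bases could differ from the consensus. The consensus reads alike on both strands, so 1 search covered both. The limit of 2 mismatches was chosen after other settings had been tried. Such a site was found for MDM2, FAS and AEN, and in 98 of 27305 genes with a window, which is 0.359%. A gene with more windows has more chances of a match. Counted by window, 100 of 35116 held a site (0.285%), and the MDM2 site lies in overlapping windows. With at most 1 mismatch no window of the 10 genes matched, against 0.0696% of all genes. The capitals mark the site, and each sequence runs 5′ to 3′ on the plus strand.

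MDM2, intron before its second promoter, chr12:68808767-68809001 (site 94 to 75 bases before the start at 68809017): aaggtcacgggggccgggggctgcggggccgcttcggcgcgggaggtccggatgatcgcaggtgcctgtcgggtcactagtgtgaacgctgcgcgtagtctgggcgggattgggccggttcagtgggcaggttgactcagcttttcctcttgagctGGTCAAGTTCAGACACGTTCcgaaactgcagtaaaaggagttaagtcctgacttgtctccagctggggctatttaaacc
FAS, intron, chr10:88991181-88991430 (site 122 to 103 bases before the start at 88991431): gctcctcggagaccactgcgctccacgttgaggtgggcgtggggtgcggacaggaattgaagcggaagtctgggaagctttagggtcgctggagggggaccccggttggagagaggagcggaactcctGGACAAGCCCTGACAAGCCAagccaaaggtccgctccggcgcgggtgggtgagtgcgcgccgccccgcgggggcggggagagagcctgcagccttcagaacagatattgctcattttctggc
AEN, within an annotated exon, chr15:88621306-88621325 (34 to 15 bases before the start at 88621340), site only: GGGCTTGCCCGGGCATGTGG

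The MDM2 and FAS sites in capitals are among the elements known from work on these promoters. Only the best site of each window under these rules was marked, so the lower-case stretches may hold other elements. No match in the other windows says only that these letters were not found there; the known elements of CDKN1A, for example, lie farther upstream. The 10 genes lie on 7 chromosomes, at the following positions of the RefSeq annotation of GRCh38.p14. CDKN1A (chr6:36676463-36687332) and SESN1 (chr6:108984309-109094846) share chromosome 6, AEN (chr15:88604683-88632281) and RPS27L (chr15:63148249-63157477) share chromosome 15, and BAX (chr19:48954875-48961798) and BBC3 (chr19:47220824-47232860) share chromosome 19. MDM2 lies at chr12:68808172-68850686, ZMAT3 at chr3:179017223-179072513, FAS at chr10:88964050-89017059 and EDA2R at chrX:66595637-66639269. Reads of overlapping genes could not be told apart because the strand setting of the counting was not given in the sources used here. In GENCODE 29, 32 exonic bases of CDKN1A (1.28%) overlap the opposite-strand gene DINOL, 785 bases of MDM2 (6.17%) an antisense gene and 439 bases (3.45%) a processed pseudogene, and 243 bases of SESN1 (6.16%) an antisense gene.

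Without Pb, CDKN1A rose from day 9 to day 12 while 7 of the other 9 genes fell. CDKN1A encodes p21, the inhibitor of cyclin-dependent kinases through which p53 halts the cell cycle. Its 3 control dishes held 94.8, 89.7 and 82.1 CPM at day 6, 153.5, 129.6 and 135.6 at day 9, and 293.6, 259.7 and 251.5 at day 12. The dishes of the 3 days did not overlap, and the log2 steps were 0.64 ± 0.08 (SE, adjusted p = 8.59e-08, limma) and 0.94 ± 0.08 (adjusted p = 4.14e-14). At day 15 they held 297.8, 295.5 and 313.6 CPM and at day 18, 246.7, 238.3 and 244.5 CPM, a step of -0.31 (adjusted p = 0.00228) that crosses the library prefixes. In bulk RNA, more cells with a transcript and more transcript per cell cannot be told apart.

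From day 6 to day 9, 4 of the 10 genes rose (CDKN1A, RPS27L by 0.46, EDA2R by 0.39 and BAX by 0.23 on the log2 scale), where 2.63% of all genes rose and 2.51% fell. The BAX and EDA2R calls were lost when the filter on low values was left out, and each was also lost on leaving out any of 5 of the 6 libraries. From day 9 to day 12, CDKN1A was the 1 gene that rose, where 20.7% of all genes did. In that step 7 of the 10 fell, where 33.7% of all genes fell and the median gene moved by -0.10. EDA2R, a receptor of the tumour necrosis factor family, fell from 22.5, 21.0 and 23.8 CPM to 8.85, 7.74 and 11.2 CPM, a log2 change of -1.20 ± 0.12 (adjusted p = 4.36e-12, limma). BBC3, which encodes the apoptosis activator PUMA, changed by -1.04, and SESN1, a stress-induced restraint on mTORC1 signalling, by -0.77. AEN, a nuclease of apoptotic cells, changed by -0.59, BAX by -0.53, MDM2 by -0.42 and RPS27L by -0.32. The RPS27L call was lost after median-ratio rescaling of the libraries (-0.21, adjusted p = 0.118) and in edgeR.

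From day 12 to day 15, EDA2R (0.84), BAX (0.41) and SESN1 (0.38) rose again and AEN fell further (-0.43), where 22.3% of all genes rose and 14.8% fell. From day 15 to day 18, where the library prefix also changed, no gene of the 10 rose and 4 fell: CDKN1A, ZMAT3 (-0.27), BBC3 (-0.57) and MDM2 (-0.31). In that step 18.4% of all genes rose and 14.9% fell, and at an unadjusted p under 0.05 in limma 0 of the 10 were higher. The MDM2 and BBC3 calls stood at an adjusted p of 0.0496. Each was lost in 3 or more alternatives, and that of MDM2 also without replicate 1 of day 18 at 0 µM, where its step was -0.12 (adjusted p = 0.536).

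Per kilobase of exon, the order of the genes changed over time. The length used was that of all annotated exons merged, such as 1412 bases for BAX, 7938 for RPS27L and 12724 for MDM2. It can exceed the transcript in use, so the order between genes depends on it beyond the SD shown. At day 6 without Pb, BAX stood highest at 69.4 ± 2.67 CPM per kb (SD, n = 3), followed by CDKN1A at 35.4 ± 2.55. BBC3 (19.9 ± 0.497) and AEN (19.5 ± 0.245) did not differ beyond their spread, nor did SESN1 (7.89 ± 0.68) and ZMAT3 (7.72 ± 0.618). EDA2R (4.74 ± 0.728), MDM2 (4.43 ± 0.227) and RPS27L (4.1 ± 0.424) lay within 1 SD of a neighbour, and FAS was lowest at 0.644 ± 0.101 CPM per kb. At day 15 CDKN1A stood first with 120.5 ± 3.94 CPM per kb and BAX second with 74.9 ± 2.35.

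**Figure D1:**
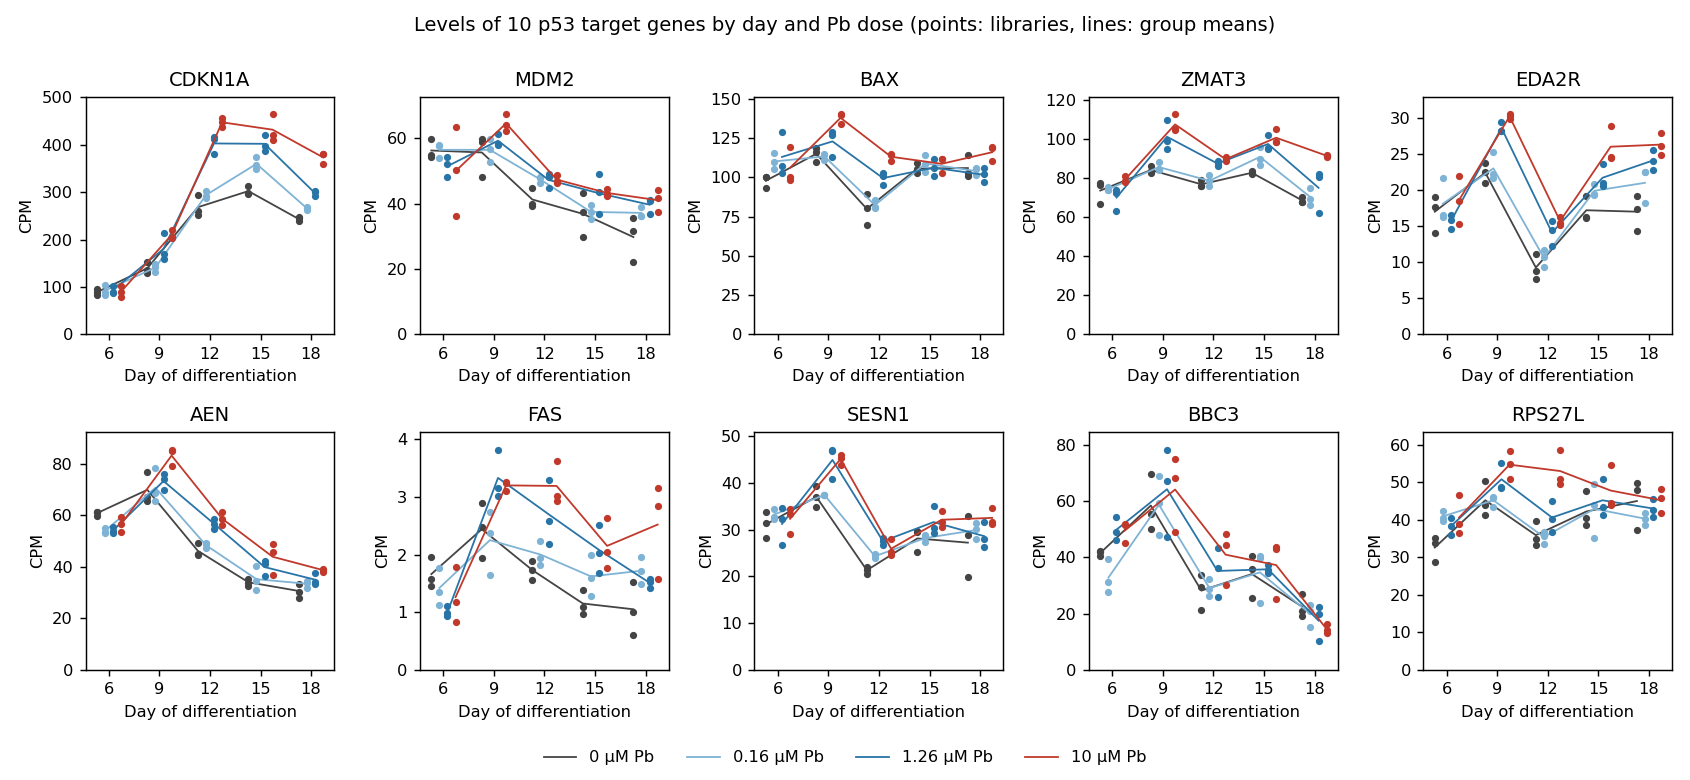
Levels of the 10 genes in CPM (linear axes from 0) against the day of differentiation; each point is 1 library, lines join group means and colours mark the Pb dose. At day 12 the 10 µM libraries of 9 genes lie above all 3 control libraries, and for CDKN1A they hold 437.8 to 456.5 CPM against 251.5 to 293.6 CPM.

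Against this course, the question of the series is what Pb adds at each day. Averaged over the 5 days, with Pb compared with the controls inside each day, 9 of the 10 genes were higher at 10 µM than at 0 µM, where 6.93% of all genes were called higher. The exception was BBC3. The 10 genes and the other gene lists were chosen with earlier results of these data known. Their counts are therefore not an independent test against the shares of all genes. The median log2 change of the 10 genes was 0.25 and that of all genes 0.00. edgeR on the recovered whole reads also called 9. The changes were modest, from 1.14-fold for MDM2 to 1.41-fold for CDKN1A on the CPM + 1 scale.

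The arrest gene CDKN1A had the smallest p of the 10. At day 6, 1 day after Pb was first given, it stood at 79.7, 89.6 and 101.5 CPM with 10 µM, which overlaps the 82.1 to 94.8 CPM of the controls. At day 9 the dishes with 10 µM held 205.3, 202.8 and 221.1 CPM and at day 12, 447.9, 437.8 and 456.5 CPM, all above every control dish of their day. The same holds for day 15, at 420.0, 411.1 and 464.4 CPM, and for day 18, at 359.1, 379.5 and 381.2 CPM. The log2 changes from day 9 on were 0.59, 0.74, 0.51 and 0.62 (each ± 0.08; adjusted p from 8.24e-09 at day 12 to 1.55e-05 at day 15, limma). The mean over days was 0.49 ± 0.036 (adjusted p = 4.21e-15), higher on 5 of 5 days.

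The feedback gene MDM2 was called at day 18 and in the mean over days. At day 18 it stood at 44.1, 41.9 and 37.4 CPM with 10 µM and at 22.1, 31.7 and 35.6 CPM without Pb, so the groups did not overlap, and the lowest value came from the control library that is low in long transcripts. The log2 change was 0.48 ± 0.12 (adjusted p = 0.00306, limma) with that library and 0.28 (adjusted p = 0.11) without it. The mean over days was 0.19 ± 0.056 (adjusted p = 0.0153). That call held on leaving out any 1 of 30 libraries and without both libraries low in long transcripts (0.19, adjusted p = 0.00111). It was lost without day 18 (0.11, adjusted p = 0.243) and when only the 2 doses were fitted (adjusted p = 0.077). At day 6 the 10 µM dishes spread from 36.2 to 63.5 CPM; the lowest was the second of the libraries low in long transcripts.

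Among the genes of the mitochondrial death pathway, BAX rose and BBC3 did not pass the test. BAX encodes the pore-forming protein that opens the mitochondrial outer membrane. At day 12 it stood at 110.2, 114.5 and 114.9 CPM with 10 µM against 80.5, 89.6 and 69.9 CPM without Pb, with no overlap and a log2 change of 0.50 ± 0.071 (adjusted p = 3.03e-06, limma). At days 15 and 18 the differences were 0.04 and 0.13 (adjusted p = 0.844 and 0.165), with 111.5, 102.7 and 112.0 CPM against 105.3, 102.7 and 109.2 CPM at day 15. Its mean of 113.2 CPM at day 12 with 10 µM lay between the control means of day 9 (115.1 CPM) and day 15 (105.7 CPM). At day 9 the change was 0.26 (adjusted p = 0.0475), a call that was lost on leaving out any of the 6 libraries. BBC3 was at 44.4, 48.4 and 30.2 CPM against 21.4, 33.7 and 29.4 CPM at day 12 (0.52 ± 0.23, adjusted p = 0.201). At day 18 it was at 13.2, 16.4 and 14.1 CPM against 27.0, 20.8 and 19.3 CPM, all below every control dish, with a log2 change of -0.58 ± 0.23 (adjusted p = 0.0517). BBC3 was called lower there with a pseudocount of 0.25, with a replicate block and with only the groups compared, and also without replicate 3 of the controls. Over the 7 alternatives the adjusted p ran from 0.0367 to 0.23, the highest being without the libraries low in long transcripts. Its mean over days was 0.08 ± 0.10 (adjusted p = 0.667), and its SE, the widest of the 10, leaves room for a change as large as that of several called genes. AEN, which digests DNA and RNA during p53-driven apoptosis, was higher by 0.34, 0.35 and 0.33 (each ± 0.078) at days 12, 15 and 18, and by 0.23 ± 0.035 in the mean (adjusted p = 1.28e-06). At day 18 its dishes held 39.3, 38.7 and 38.0 CPM against 27.9, 33.5 and 30.4 CPM, with no overlap.

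Both receptors of the tumour necrosis factor family among the 10 rose. EDA2R, which binds ectodysplasin A2, stood at 16.2, 15.2 and 15.5 CPM with 10 µM at day 12 against 8.85, 7.74 and 11.2 CPM, and at 26.1, 24.8 and 27.9 CPM at day 18 against 14.3, 19.2 and 17.4 CPM. Neither pair of groups overlapped. The log2 changes were 0.71, 0.57 and 0.61 (each ± 0.12) at days 12, 15 and 18, and the mean over days was 0.49 ± 0.053 (adjusted p = 8.37e-10, limma). FAS, the receptor for FAS ligand, was scarce throughout. At day 12 it was at 3.62, 3.01 and 2.93 CPM against 1.74, 1.88 and 1.56 CPM (log2 change 0.62 ± 0.16, adjusted p = 0.014), and at day 18 at 3.15, 1.57 and 2.85 CPM against 1.01, 1.53 and 0.603 CPM (0.78 ± 0.16, adjusted p = 0.000225). With edgeR on whole reads, which adds no pseudocount of 1 CPM, the change at day 12 was 0.875 and at day 18 it was 1.24. The day 12 call was lost without replicate 3 of the controls or replicate 1 of 10 µM (adjusted p up to 0.0816), and the day 15 call (0.55) on leaving out any of 4 of the 6.

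The remaining 3 genes act on RNA, metabolism and ribosomes. ZMAT3 is an RNA-binding zinc finger protein that alters splicing and represses growth. At day 9 its 10 µM dishes held 112.5, 104.5 and 104.9 CPM against 85.9, 82.5 and 83.5 CPM, and at day 18, 91.3, 90.7 and 91.8 CPM against 67.4, 67.7 and 70.3 CPM. The groups did not overlap on any of the 5 days, and the log2 changes ran from 0.10 at day 6 (not called) to 0.41 at day 18, with a mean of 0.27 ± 0.029 (adjusted p = 5.04e-10, limma). The call at day 12 (0.22, adjusted p = 0.0357) was lost in edgeR, after rescaling and on leaving out any of its 6 libraries. SESN1 had a mean of 0.21 ± 0.045 (adjusted p = 0.000518), with only day 18 called among the single days. That call (0.28, adjusted p = 0.0356) rested on replicate 1 of the controls, at 19.8 CPM beside 33.0 and 28.9 CPM, and was 0.07 (adjusted p = 0.663) without it. RPS27L, a ribosomal protein paralog that binds MDM2, was higher at day 12, at 50.8, 49.5 and 58.7 CPM against 39.6, 33.4 and 34.8 CPM (0.55 ± 0.11, adjusted p = 0.000893), and by 0.02 ± 0.11 at day 18. Its mean was 0.26 ± 0.048 (adjusted p = 5.21e-05). RPS27, the close copy of RPS27L in the ribosome, changed by -0.20 ± 0.053 (adjusted p = 0.00562), opposite to RPS27L. How reads that match both copies were counted was not given in the sources used here.

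**Figure D2:**
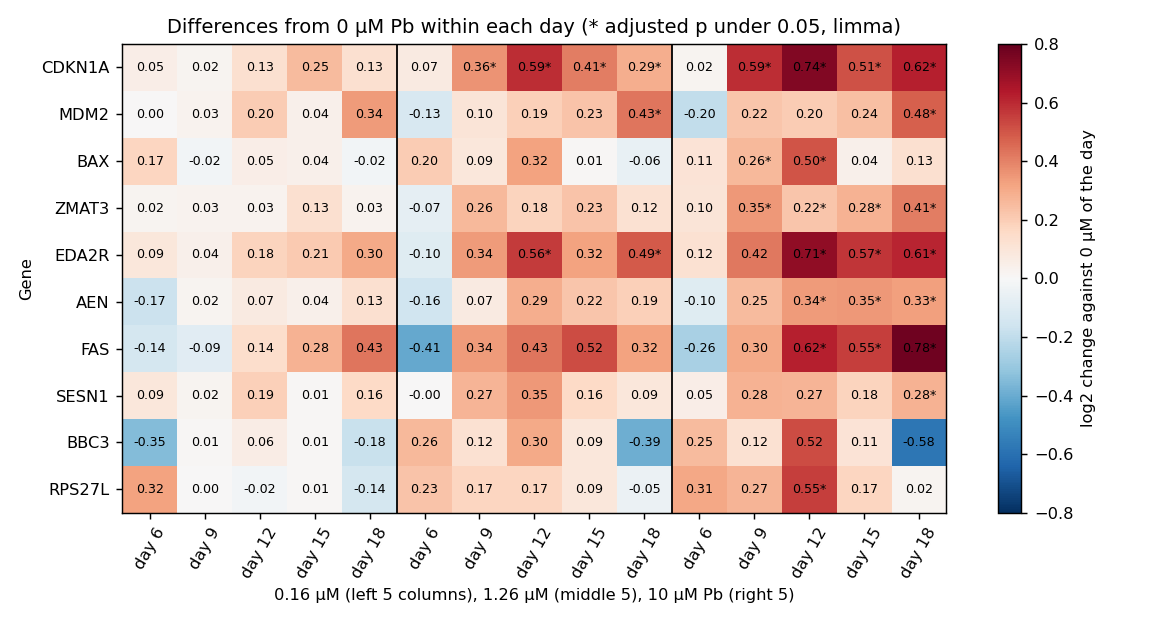
log2 change of each gene (rows) against 0 µM of the day for 0.16, 1.26 and 10 µM Pb at 5 days (columns); numbers are the changes, colour runs from -0.8 to 0.8, and an asterisk marks an adjusted p under 0.05 in limma. The asterisks of 10 µM begin at day 9, and CDKN1A carries one on each of the 4 days from day 9 on at both 1.26 and 10 µM.

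Counted by day, 0 of the 10 genes were called at day 6 with 10 µM, where 0.295% of all genes were called higher. At an unadjusted p under 0.05 limma had 1 (RPS27L, 0.31), and edgeR called 0. At day 9, 3 of 10 were called higher (CDKN1A, ZMAT3 and BAX; 0.446% of all genes), at day 12, 7 of 10 (3.03%), at day 15, 5 of 10 (2.50%) and at day 18, 7 of 10 (12.1%). Without the test, the 3 dishes with 10 µM lay above all 3 controls for 3 of 10 genes at day 6 (7.12% of all genes), 9 at day 9 (9.19%), 9 at day 12 (15.4%), 6 at day 15 (13.7%) and 6 at day 18 (11.9%). BBC3 was the gene that overlapped at days 9 and 12. A test that the 5 within-day differences are equal passed for 6 of the 10 (CDKN1A, BAX, FAS, AEN, MDM2 and EDA2R), where 21.7% of all genes passed.

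Fewer genes were called at the lower doses. As the mean over days, 7 of 10 genes were called at 1.26 µM, where 1.67% of all genes were called higher: CDKN1A (0.34 ± 0.036, adjusted p = 6.5e-09, limma), EDA2R (0.32 ± 0.053, adjusted p = 7.26e-05), FAS (0.24), SESN1 (0.18), ZMAT3 (0.14), AEN (0.12) and BAX (0.11). MDM2 (0.16), RPS27L (0.12) and BBC3 (0.08) did not pass. The calls of CDKN1A, EDA2R and ZMAT3 held under all 8 alternatives, while edgeR, leaving out the low-value filter and fitting only the 2 doses each called 4. Single-day calls at 1.26 µM were few. At day 6 limma and edgeR called 0 of the 10, where 0% of all genes were called higher, and at an unadjusted p under 0.05 limma had 4, of which 2 were higher. CDKN1A was called at day 9 (0.36; 0.131% of all genes), a call lost in edgeR and after rescaling, CDKN1A (0.59) and EDA2R (0.56) at day 12 (0.0197%, which is 3 genes in all), CDKN1A (0.41) at day 15 (0.328%), and CDKN1A (0.29), EDA2R (0.49) and MDM2 (0.43) at day 18 (9.10%). At day 12 the dishes with 1.26 µM held 411.2, 380.2 and 416.9 CPM of CDKN1A, above every control and below every dish with 10 µM. The 3 calls of day 18 were lost without replicate 1 of the controls, where adjusted p was 0.105 for CDKN1A, 0.159 for EDA2R and 0.409 for MDM2. Without the 2 libraries low in long transcripts, the genes called higher at day 18 with 1.26 µM went from 1389 to 446. With only the groups compared in the fit, they went to 0.

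At 0.16 µM, 0 of 10 genes were called as the mean over days, where 0.059% of all genes were called higher. At an unadjusted p under 0.05 there were 4 in limma, all higher, and edgeR called 0. The values were 0.12 ± 0.036 for CDKN1A (adjusted p = 0.275), 0.16 ± 0.053 for EDA2R (adjusted p = 0.334), 0.12 for MDM2 and 0.09 for SESN1, and those of the other 6 ran from -0.09 for BBC3 to 0.12 for FAS. None of the 10 was called on any single day by limma or edgeR, where 0% (day 6), 0.0131% (day 9), 0% (day 12), 0% (day 15) and 5.19% (day 18) of all genes were called higher. At an unadjusted p under 0.05, limma had 3, 0, 0, 2 and 3 of the 10 on these days. Without the 2 libraries low in long transcripts, the genes called higher at day 18 with 0.16 µM went from 792 to 109. With only the groups compared in the fit, they went to 0. CDKN1A at day 15 held 356.4, 373.6 and 349.1 CPM with 0.16 µM, all above the 295.5 to 313.6 CPM of the controls, a log2 change of 0.25. Over the 3 steps between the 4 doses the mean within-day slope was called for 9 of 10 genes, again all but BBC3, where 7.26% of all genes were called with a rising slope. It was 0.17 ± 0.011 per step for CDKN1A (adjusted p = 2.07e-16) and 0.16 ± 0.017 for EDA2R. On 4 of the 5 days the group means of CDKN1A, ZMAT3, EDA2R and AEN rose at every dose step.

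**Figure D3:**
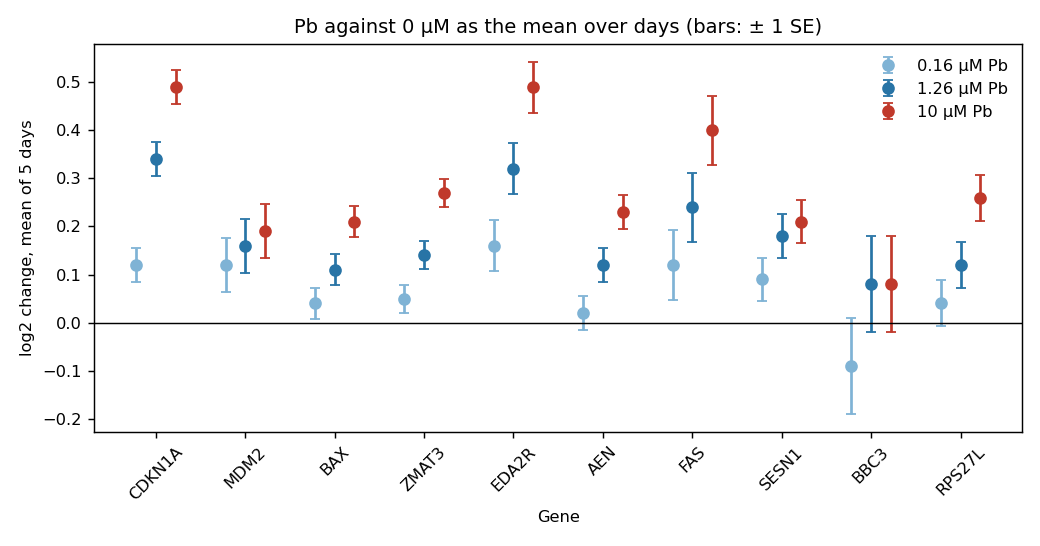
Mean over 5 days of the log2 change against 0 µM for each gene at 0.16, 1.26 and 10 µM Pb; points are estimates of the limma model and bars ± 1 SE. For CDKN1A the values are 0.12, 0.34 and 0.49, and for BBC3 they are -0.09, 0.08 and 0.08.

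Among 42 other p53 targets, 41 were tested and 12 passed at 10 µM, all of them higher, where 6.93% of all genes were, with a median of 0.09 against 0.00 for all genes. The 3 with the smallest p were GDF15, a stress cytokine (1.11 ± 0.047, adjusted p = 3.5e-23), the kinase PLK2 (0.42 ± 0.029) and GADD45A, a growth arrest gene (0.29 ± 0.042). GDF15 stood at 2403.7, 2436.6 and 2549.3 CPM at day 12 with 10 µM against 1229.2, 1191.6 and 1143.6 CPM, and like CDKN1A showed no such gap at day 6, at 86.8, 91.5 and 114.2 against 91.3, 90.2 and 88.2 CPM. PLK2 overlapped at day 12, where CDKN1A differed most, at 61.2, 56.7 and 61.7 CPM against 59.0, 58.9 and 62.3 CPM. At 1.26 µM, 3 of the 41 were higher, where 1.67% of all genes were.

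The lists of genes next to the 10 in their pathways held at most 2 calls in either direction, where 6.93% of all genes were called higher and 8.13% lower at 10 µM. Counts this small are not read as different from those shares. In the BCL2 family, 2 of 13 tested genes passed, both higher: BIK (0.33 ± 0.073, at under 2.2 CPM throughout) and the survival gene BCL2 (0.20 ± 0.064), with a median of -0.03. BAK1, which shares the role of BAX, changed by -0.07 (adjusted p = 0.423). In the death receptor pathway 2 of 11 passed, both higher, among them TNFRSF1A (0.17), with a median of 0.08. Among 15 genes of sestrin and mTORC1 control 1 was higher, SESN2 (0.14 ± 0.043, adjusted p = 0.0156), and 1 lower, NPRL2 (-0.09), and SESN3 changed by 0.17 (adjusted p = 0.102).

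Genes known to be repressed by the DREAM complex, which forms when p21 blocks cyclin-dependent kinases, fell at the doses at which CDKN1A rose. Whether CDKN1A had a part in this fall was not tested. At 10 µM all 25 of the list were lower in the mean of the days, where 8.13% of all genes were called lower, with a median of -0.35. At 1.26 µM, 18 of 25 were lower, where 2.17% of all genes were. The smallest p belonged to BIRC5, the mitotic survivin (-0.40 ± 0.030), the replication helicase subunit MCM5 (-0.31 ± 0.024) and cyclin CCNB1 (-0.38 ± 0.030). BIRC5 at day 18 held 49.1, 49.8 and 50.9 CPM against 95.0, 85.5 and 80.8 CPM. The list's median was -0.10 at day 6 and -0.06 at day 9, when CDKN1A was already called, and 21, 22 and 24 of 25 were lower at days 12, 15 and 18 (2.34%, 3.18% and 16.9% of all genes). Of 15 tested kinase inhibitors and G1 kinases, 8 passed, all of them lower, with a median of -0.15, among them CCNA2 (-0.35), PCNA (-0.20) and CCND1 (-0.12). Cell cycle genes vary together, so the members of these lists are not independent of each other.

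**Figure D4:**
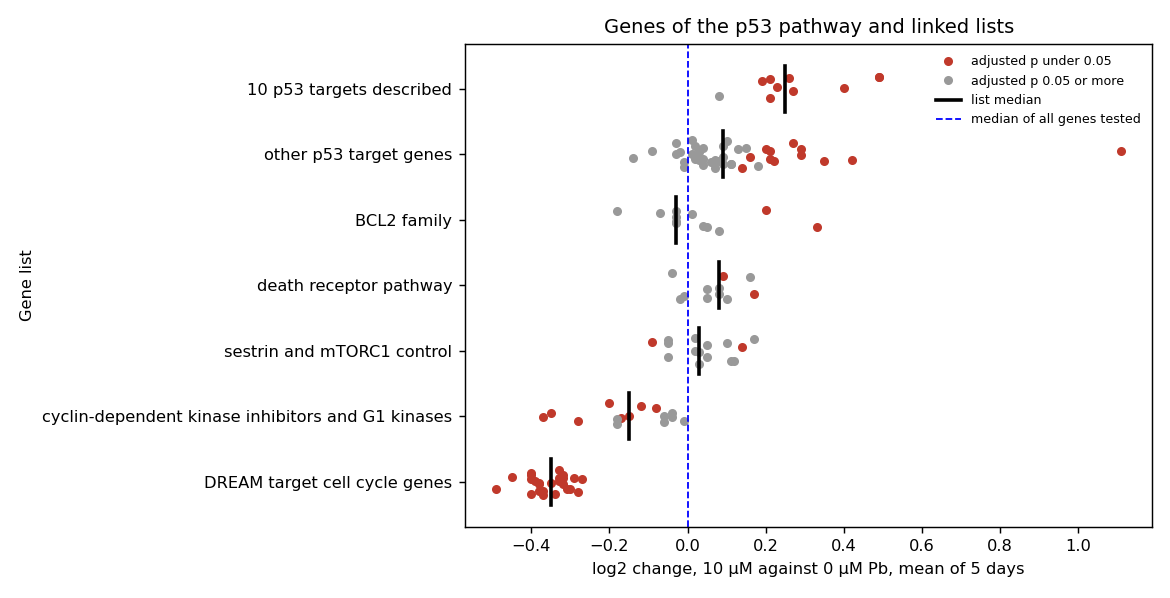
log2 change at 10 µM against 0 µM as the mean of 5 days (horizontal axis) for each tested gene of 7 lists; each dot is a gene, red with an adjusted p under 0.05 in limma, black bars are list medians and the dashed line the median of all genes tested. The 10 genes described have a median of 0.25, the other p53 targets 0.09 and the DREAM targets -0.35.

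Most mesenchymal markers were lower at 10 µM. Of 13 tested, 9 were lower and 2 higher, where 8.13% and 6.93% of all genes were, with a median of -0.29. At 1.26 µM 2 were lower (2.17% of all genes) and at 0.16 µM 2 (0.0655%), with medians of -0.06 and -0.02. The 15 markers of the flat, substrate-adherent cells known in this line summed to 283.1 to 301.8 CPM at day 9 without Pb and to 174.7 to 195.5 CPM with 10 µM. At day 12 the sums were 363.4 to 372.9 CPM against 248.9 to 269.3 CPM, at day 6, 270.5 to 287.5 against 245.5 to 266.4 CPM, at day 15, 360.9 to 383.1 against 332.2 to 353.1 CPM and at day 18, 455.0 to 466.9 against 417.8 to 431.4 CPM. COL3A1 changed by -1.88 ± 0.10 as the mean over days (adjusted p = 2.61e-19, limma), VIM by -0.64 and COL1A1 by -0.61. The 2 that were higher, named after their values were seen, were FOSL1 (0.33) and LUM (0.16). The noradrenergic sums were 12207.2 to 12923.0 CPM with 10 µM against 13498.0 to 13982.8 CPM at day 12, and 16013.2 to 16519.7 CPM against 16885.2 to 17410.1 CPM at day 15, lower with 10 µM and with no overlap on both days. They overlapped at days 6, 9 and 18. Whether the share of such cells has a part in the changes of the 10 genes was not tested. Epithelial markers, with KRT1 at 0 in all libraries, were highest at day 18, which cannot be told apart from the library prefix. They summed to 97.9 to 147.6 CPM in the controls and 100.7 to 115.7 CPM with 10 µM on that day. On the other days both groups held at most 45.8 CPM. The sums at 0 and 10 µM overlapped on every day. The 8 Schwann and glial markers summed to 3.79 to 20.2 CPM per library.

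Over the 20 group means the genes outside the 10 most like CDKN1A were ones that climb during differentiation: OLFML3 (Pearson r = 0.970), SEPTIN6 (0.958), TTC39A (0.954), KIAA0930 (0.953) and DUSP4 (0.952), among 11572 genes with a mean of at least 5 CPM. Of the other 9 genes described, ZMAT3 (0.426), FAS (0.352) and RPS27L (0.341) had a positive r, EDA2R was at -0.003, BAX at -0.14, SESN1 at -0.384, BBC3 at -0.469, AEN at -0.484 and MDM2 at -0.546. The median gene had -0.257. With each group mean taken relative to the mean of its day, which leaves the differences between doses, the order was another. The most alike outside the 10 were then ACTA2 (0.914), TRIM3 (0.902), CTBS (0.901), SUSD6 (0.897) and GADD45A (0.884), and the median gene had 0.043. On this measure, among the 10, EDA2R (0.940), ZMAT3 (0.908), AEN (0.900), SESN1 (0.871), FAS (0.868) and BAX (0.823) followed CDKN1A closely, RPS27L (0.738) and MDM2 (0.710) less so, and BBC3 hardly (0.180). These correlations describe 20 means that share libraries and normalisation across genes. Those relative to the day's mean rest on the same differences between doses as the tests above, and are not a separate result.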

How the data were processed

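The authors deposited 1 table of CPM (reads per 1000000 assigned reads) with 37334 genes and 60 libraries. STAR, featureCounts, FastQC and MultiQC and the build GRCh38 are named in the submitters' processing notes; versions, annotation and strand setting were not given in the sources used here. Every column summed to 1000000, and 100.0% of values were whole multiples of 1 read within 0.01 read (largest deviation 0.00017), so whole reads were recovered; edgeR on them called 2169 genes at 10 µM as the mean over days, where limma called 2298. Libraries were grouped by the day and dose in the labels.

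A limma 3.58.1 model in R 4.3.3 with 1 mean per group and a trended prior variance was fitted to log2(CPM + 1) of all 60 libraries, with 40 residual degrees of freedom and no rescaling, for 24 two-sided contrasts. Benjamini-Hochberg adjustment ran over the 15263 genes that reached 1 CPM in 3 or more libraries. Errors are SE beside log2 changes and SD (n = 3) beside levels.

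Alternatives were a pseudocount of 0.25, no filter, median-ratio rescaling, a replicate block, edgeR 4.0.16 with TMM scaling, only the groups compared, leaving out the 2 libraries low in long transcripts, day 18 or each library in turn, and a dose scale linear in µM. The members and gene lists were chosen with earlier results of these data known. All 10 genes are counted in every comparison, and their changes by dose and day stand in the plot of changes; of each other list it names up to 3 genes with the smallest p at 10 µM as the mean over days, plus RPS27, SESN2, SESN3 and BAK1, and the 5 genes most like CDKN1A by each measure. A few genes that this rule names, and 1 list, are not reported here.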

Additional observations from a re-analysis of the deposited data

Results flagged for a closer look

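For 6 of the 10 genes the difference of 10 µM from 0 µM was not equal over the 5 days, by a moderated F test in limma adjusted over 15263 genes, a test that 21.7% of all genes passed. The adjusted p was 3.33e-05 for CDKN1A, whose log2 differences were 0.02, 0.59, 0.74, 0.51 and 0.62 from day 6 to day 18. BAX had an adjusted p of 0.00349, with 0.50 at day 12 and 0.04 at day 15. FAS (adjusted p = 0.0045) ran from -0.26 at day 6 to 0.78 at day 18, AEN (adjusted p = 0.00563) from -0.10 to 0.33, and MDM2 (adjusted p = 0.0415) from -0.20 to 0.48. EDA2R had an adjusted p of 0.0487, with 0.12 at day 6 and 0.71 at day 12. The CDKN1A, BAX, FAS and AEN results held under all 8 alternatives and on leaving out any 1 of 30 libraries. The MDM2 result was lost under 4 alternatives, among them leaving out the 2 libraries low in long transcripts, and the EDA2R result under 5. With 1 library left out, MDM2 missed the threshold in 8 of 30 cases and EDA2R in 22 of 30.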

How the results depend on the processing

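No called log2 change of the 10 genes changed sign. Of 1730 values under the alternatives, 1627 kept their direction and their side of the threshold, 70 lost the call, 12 gained one, and 21 uncalled values changed sign; with 1 library left out the numbers were 2712, 130, 18 and 80 of 2940. Counts of members called moved as follows. As the mean over days at 1.26 µM, 7 became 4 with no filter, in edgeR and with only the groups compared. With no filter, 4 became 2 for day 9 against day 6 and 4 became 2 for day 18 against day 15. At 1.26 µM and day 9, 1 became 0 after rescaling, in edgeR and with only the groups compared. When the 2 libraries low in long transcripts were left out it became 2, and 1 became 2 at day 15 and 3 became 1 at day 18. With only the groups compared, 5 became 3 (10 µM, day 15), 7 higher became 4 called, of which 3 were higher and 1, BBC3, lower (10 µM, day 18), 2 became 1 (1.26 µM, day 12), 3 became 0 (1.26 µM, day 18) and 4 became 2 (day 18 against day 15); this fit uses fewer libraries, and for the rest the cause was not tested. Taken over all days, the replicate numbers did not pair the libraries (r of deviations over 0.1 in 23 of 90 same-numbered pairs, median 0.015). Libraries of replicate 2 did deviate together at day 12, with r of 0.309 to 0.432, and less so at day 15, with 0.089 to 0.294. Single pairs of other numbers also had a high r, up to 0.532 for replicate 3 of 0.16 and 10 µM at day 15. The lowest of the 90 was -0.356. The replicate block gave each number 1 effect over all days, so a pairing within 1 day was not modelled. With this block the count at 1.26 µM and day 12 went from 2 to 1 (EDA2R lost, adjusted p = 0.056). That at 10 µM and day 9 went from 3 to 2 (BAX lost, adjusted p = 0.0505). The same count was also 2 with no filter, after rescaling and with only the groups compared. The block moved no other count by 1.5 times or more.

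With 1 library left out the counts ranged as follows: at 10 µM, 9 to 9 (mean over days), 0 to 1 (day 6), 2 to 3 (day 9), 5 to 6 (day 12), 3 to 5 (day 15) and 5 to 8 (day 18); at 1.26 µM, 4 to 7 (mean), 0 to 2 (day 9), 1 to 2 (day 12), 1 to 1 (day 15) and 0 to 4 (day 18); at 0.16 µM and day 18, 0 to 1; 9 to 9 for the dose trend; 1 to 3, 7 to 9, 4 to 5 and 2 to 3 for the 4 steps of time; and 4 to 7 for 10 µM by day. The call of AEN at day 15 was lost without replicate 3 of 10 µM (0.27, adjusted p = 0.0539), and that of SESN1 at day 18 also without replicate 1 or 3 of 10 µM. Rescaling moved the share of higher among all called genes from 56.4% to 45.4% (10 µM, day 12), 43.9% to 28.7% (day 15), 41.6% to 56.9% (day 18), 43.5% to 32.2% (1.26 µM, mean), and from 38.1% to 51.4% (day 12 against day 9). Depth limits FAS, with as few as 10 reads in a library.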
